A study of Mus musculus with 12 samples.

Results

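The genes described here are 37 genes through which cells repair the crosslinks and bulky adducts that platinum drugs make in DNA, among 53801 genes of the deposited table. They were listed by gene name, with earlier results of these data already known, so shares set against all genes below are descriptions. All 37 had a mean level of at least 1 FPKM (fragments per kilobase of transcript, scaled to the size of the library), as 14246 genes did. RNA was measured in 12 tumours of Lewis lung carcinoma (LLC) cells, a lung cancer line of C57BL/6 mice, grown in the flanks of female C57BL/6 mice aged 6 to 8 weeks. Each group had 3 tumours: cisplatin and brivanib together (combination libraries 2, 3 and 4), cisplatin alone (1, 2 and 3), brivanib alone (2, 3 and 5) and vehicle (2, 3 and 5). Cisplatin is a platinum drug, and brivanib inhibits the VEGF and FGF receptor kinases. Drugs or vehicle were injected into the peritoneum in 100 µL, 2 times per week for 4 weeks, from a tumour volume of 100 mm3, while no dose is given by the sources used here. All groups carried LLC cells in Matrigel on both flanks, with 6 mice giving 10 to 12 tumours per group, so that tumours of a group may share a mouse. The labels do not say which do, so a p-value here reflects the spread among tumours and treats them as independent. Where tumours of a group share a mouse, it may be too small. Within each group, values are listed in the order of the libraries given here.

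Cisplatin joins neighbouring bases of one DNA strand or bases of both strands. Adducts on one strand are cut out by nucleotide excision repair, while a replication fork that meets a crosslink between strands calls on the Fanconi anaemia pathway, in which a core complex attaches ubiquitin to FANCD2 and FANCI, nucleases unhook the crosslink, translesion polymerases copy past it and homologous recombination mends the broken strand. Mismatch repair proteins also recognise platinum adducts, and several of these genes are transcribed most in dividing cells.

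The libraries held 17.161 M to 30.943 M fragments (M, 1e6). In brivanib 5, ribosomal RNA features took 38.331% of the fragments, against 0.316% to 0.692% in the other 11 libraries. Of 10 epithelial markers, Krt18, Nkx2-1 and Sftpc were listed at 0 in every library, 9 averaged below 1 FPKM, and Cdh1 ranged between 1.12 and 3.23 FPKM, so these markers do not identify the labelled lung carcinoma cells. In pieces of tumour, fewer cells of a type and less RNA per cell cannot be told apart.

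The level of RNA per length differed widely between the repair genes. In vehicle tumours Ddb1, a subunit of a ubiquitin ligase that also serves replication, was highest at 239 ± 15.7 FPKM (SD, n = 3). Fanca, a scaffold of the core complex, followed at 60.3 ± 2.75 FPKM, and Msh6, which recognises mismatches in DNA, at 29.8 ± 2.800 FPKM. Counting Msh6, 11 genes averaged 10 to 30 FPKM, and 24 were below 10 FPKM, with a median of 7.45 FPKM over all 37. The lowest were the helicase Fancm at 1.698 ± 0.499 FPKM and the recombination gene Rad51c at 1.69 ± 0.347 FPKM, which rested on as few as 85 fragments in a library. Of the 36 pairs of neighbours in this order, 30 overlapped in their vehicle libraries. The 6 that did not were Ddb1 over Fanca, Fanca over Msh6, Usp1 over Fance, Rev1 over Slx4, Polh over Ercc1 and Fancc over Fan1.

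Both groups given cisplatin were first compared with both groups not given it, a contrast averaged over brivanib with 6 tumours on each side. In this contrast 6 of the 37 genes were higher with cisplatin and 0 were lower: Brca1, Msh6, Fancb, Fancd2, Ercc3 and Xrcc3 (limma on log2(FPKM + 1), Benjamini-Hochberg adjusted p below 0.05 over all genes tested). The count was 3 with median-of-ratios scaling, 2 with ribosomal features removed and 0 with equal totals, and Xrcc3 was called in 5 of 27 alternatives. The calls came to 16.2% of the 37 genes, beside 4.96% of all genes tested that were called higher and 1.55% called lower. The same 6 genes were those in which every tumour given cisplatin lay above every tumour not given it, as did 3.45% of all genes tested. At an unadjusted p below 0.05, limma had 14 of the 37 higher and 0 lower, against 17.4% and 7.38% of all genes. The fold change was positive for 34 of 37 genes, against 59.8% of all genes, and its median was 0.16 on the log2 scale, against 0.05 for all genes. Under median-of-ratios scaling 28 were positive and 9 negative, and with ribosomal features removed 29 and 8. Each fold change is a difference of log2(FPKM + 1) ± its standard error, and the added 1 makes the change of a gene near 1 FPKM look smaller than it is.

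**Figure D1:**
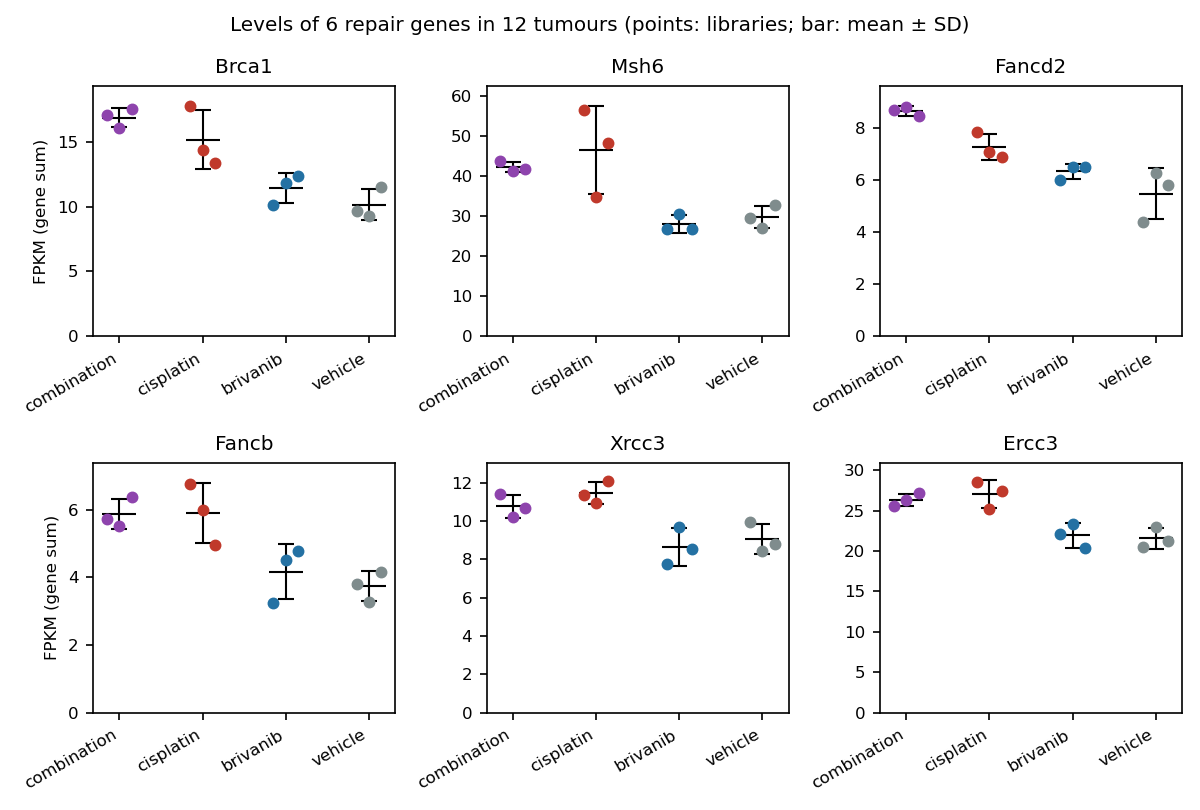
FPKM of the 6 genes called higher with cisplatin, 1 point per tumour, with the mean and SD of each group of 3 as bars; groups run from combination and cisplatin to brivanib and vehicle. In each panel the 6 tumours given cisplatin lie above the 6 not given it, for Brca1 between 13.4 and 17.8 FPKM against 9.27 to 12.3 FPKM.

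Promoter windows from RefSeq (GRCm38.p6) are shown for 4 of the genes called higher, so that their letters can be set beside the counts over all genes with windows. Each runs from 250 bases before to 50 bases after the start. Capitals mark the letters of an E2F site (TTTGGCGC, TTTCGCGC or TTCCCGCC) or of a CCAAT box (CCAAT) on either strand.
Brca1 (chr11:101551906-101552205, minus strand): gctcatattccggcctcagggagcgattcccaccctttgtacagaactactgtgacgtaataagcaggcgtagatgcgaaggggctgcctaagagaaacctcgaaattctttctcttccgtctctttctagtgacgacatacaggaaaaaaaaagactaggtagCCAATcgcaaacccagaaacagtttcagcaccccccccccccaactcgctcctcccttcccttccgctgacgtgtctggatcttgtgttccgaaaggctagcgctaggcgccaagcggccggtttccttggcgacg
Msh6 (chr17:87974800-87975099, plus strand): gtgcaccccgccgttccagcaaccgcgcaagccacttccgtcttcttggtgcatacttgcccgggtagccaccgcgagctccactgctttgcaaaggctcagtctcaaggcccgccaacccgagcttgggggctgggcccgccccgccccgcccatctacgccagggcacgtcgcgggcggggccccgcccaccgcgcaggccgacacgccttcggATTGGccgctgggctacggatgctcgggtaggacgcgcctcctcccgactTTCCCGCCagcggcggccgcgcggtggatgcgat
Fancb (chrX:164980342-164980641, plus strand): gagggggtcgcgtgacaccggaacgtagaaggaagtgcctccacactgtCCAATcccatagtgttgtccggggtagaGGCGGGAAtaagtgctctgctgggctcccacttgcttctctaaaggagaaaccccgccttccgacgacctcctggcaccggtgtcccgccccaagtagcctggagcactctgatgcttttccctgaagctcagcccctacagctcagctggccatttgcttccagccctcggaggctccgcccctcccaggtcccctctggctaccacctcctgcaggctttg
Xrcc3 (chr12:111813830-111814129, minus strand): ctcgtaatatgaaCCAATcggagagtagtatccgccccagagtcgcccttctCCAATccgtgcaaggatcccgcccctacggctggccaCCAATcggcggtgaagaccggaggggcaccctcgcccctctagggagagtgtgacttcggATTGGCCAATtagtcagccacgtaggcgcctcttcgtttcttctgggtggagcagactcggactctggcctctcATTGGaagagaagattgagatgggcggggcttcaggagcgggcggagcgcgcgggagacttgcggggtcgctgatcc
Windows were matched by symbol for 30 of the 37 genes. The E2F letters stood in 4 of them (13.3%), Msh6, Fancb, Fancm and Rad51c, against 3.4% of 27025 genes with windows of the same length. A gene was counted if any of its windows matched. A CCAAT box was held by 18 of the 30, against 41.1% of all, and a GC box (GGGCGG) by 20 (66.7%, against 38.2%), both read on either strand, as was the cell cycle homology region (TTTGAA), found in 2 (6.7%, against 20.2%). The consensus palindrome of NRF1 stood in 2 (6.7%, against 1.1%). These are matches of letters, not sites of binding, and E2F letters also stood in Fancm and Rad51c, which did not pass the test. The 27025 genes were not limited to those expressed in these tumours, while all 37 genes averaged at least 1 FPKM. The part of expression in these shares was not tested.

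The core complex is the ubiquitin ligase of the pathway, and 1 of its 8 genes (12.5%), Fancb, was higher with cisplatin, against 4.96% of all genes tested. The median fold change over the 8 was 0.11, against 0.05 for all genes. Fancb, a part of the catalytic module around the ligase subunit, had 5.72, 5.53 and 6.38 FPKM in the combination tumours, 6.75, 5.995 and 4.97 FPKM in the cisplatin tumours, 3.24, 4.499 and 4.77 FPKM in the brivanib tumours and 3.81, 3.26 and 4.16 FPKM in the vehicle tumours. The lowest tumour given cisplatin, cisplatin 3, stood just above the highest of those not given it, brivanib 5. Its fold change was 0.48 ± 0.11 (limma, adjusted p = 0.0268), a ratio of mean FPKM of 1.49. Nearly all of its level came from 1 protein-coding transcript. Fanca had 65.4, 60.6 and 56.5 FPKM in the combination tumours, 58.8, 55.2 and 57.4 FPKM in the cisplatin tumours, 64.4, 48.3 and 49.8 FPKM in the brivanib tumours and 57.2, 62.4 and 61.3 FPKM in the vehicle tumours. The groups overlapped, with the lowest value in brivanib 3 and the highest in combination 2, and the fold change was 0.05 ± 0.08 (limma, adjusted p = 0.747). Fance, which binds FANCD2, had 0.28 ± 0.09 (limma, adjusted p = 0.0788). The ligase Fancl (0.19) and the subunits Fancg (0.17), Fancc (0.02), Fancm (0.01) and Fancf (-0.06) did not pass.

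Among the substrates of the core complex, Fancd2 was higher with cisplatin and its partner Fanci did not pass the test. Fancd2, which clamps onto DNA with Fanci once ubiquitin is attached, had 8.71, 8.84 and 8.46 FPKM in the combination tumours, 7.86, 7.08 and 6.899 FPKM in the cisplatin tumours, 6.02, 6.51 and 6.495 FPKM in the brivanib tumours and 4.39, 6.27 and 5.802 FPKM in the vehicle tumours. The 3 combination tumours were highest, the 3 cisplatin tumours came next and vehicle 2 was lowest, without overlap between tumours given and not given cisplatin. The fold change was 0.38 ± 0.09 (limma, adjusted p = 0.0291). Fanci had 7.37, 5.92 and 6.58 FPKM in the combination tumours, 7.96, 7.62 and 6.95 FPKM in the cisplatin tumours, 5.497, 8.55 and 7.41 FPKM in the brivanib tumours and 5.93, 4.95 and 5.699 FPKM in the vehicle tumours. Its brivanib tumours overlapped all other groups, with the highest value of all in brivanib 3, and the fold change was 0.15 ± 0.11 (limma, adjusted p = 0.405). Usp1, the deubiquitinase that releases Fancd2, had 0.17, the nuclease scaffold Slx4 0.16 and the nuclease Fan1 0.06 on the log2 scale, none of which passed. For cisplatin alone against vehicle, Fancd2 had 0.36, Fanci 0.385 and Usp1 0.32, none past the test (limma, adjusted p of 0.216, 0.265 and 0.278). In each of these genes the cisplatin tumours lay above the vehicle tumours without overlap, as for 17.0% of all genes.

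All 8 genes of homologous recombination had a positive fold change with cisplatin, with a median of 0.30. The test was passed by 2 of them, Brca1 and Xrcc3, and 7 had an unadjusted p below 0.05. Over all genes 4.96% were called higher, 17.4% were higher at that unadjusted p and 59.8% had a positive fold change. All 8 stayed positive under the 3 other scalings, 6 with proliferation and 5 with erythroid markers as a covariate. Brca1, the ubiquitin ligase that directs broken ends to recombination, had 17.1, 16.1 and 17.5 FPKM in the combination tumours, 17.8, 14.4 and 13.4 FPKM in the cisplatin tumours, 10.1, 11.9 and 12.3 FPKM in the brivanib tumours and 9.65, 9.27 and 11.5 FPKM in the vehicle tumours. The lowest tumour given cisplatin, cisplatin 3, lay above the highest not given it, brivanib 5. The fold change was 0.53 ± 0.09 (limma, adjusted p = 0.0094), a ratio of mean FPKM of 1.49. Xrcc3, which acts in homologous recombination, had 11.4, 10.2 and 10.7 FPKM in the combination tumours, 11.4, 10.96 and 12.1 FPKM in the cisplatin tumours, 7.73, 9.68 and 8.54 FPKM in the brivanib tumours and 9.93, 8.41 and 8.81 FPKM in the vehicle tumours. Combination 3 and vehicle 2 were the closest values across the divide, and the fold change was 0.30 ± 0.08 (limma, adjusted p = 0.0418). Brca2, a mediator of homologous recombination, had 9.47, 6.49 and 8.03 FPKM in the combination tumours, 7.71, 7.64 and 6.56 FPKM in the cisplatin tumours, 5.92, 6.88 and 8.77 FPKM in the brivanib tumours and 5.73, 5.16 and 5.33 FPKM in the vehicle tumours. Brivanib 5 was above all cisplatin tumours, so the groups overlapped, and the fold change was 0.25 ± 0.11 (limma, adjusted p = 0.179). Palb2, the bridge between Brca1 and Brca2, had 6.597, 5.62 and 5.32 FPKM in the combination tumours, 5.41, 4.49 and 4.72 FPKM in the cisplatin tumours, 4.63, 4.56 and 4.22 FPKM in the brivanib tumours and 3.35, 4.65 and 3.42 FPKM in the vehicle tumours. Vehicle 3 lay among the cisplatin tumours, and the fold change was 0.31 ± 0.10 (limma, adjusted p = 0.084). The helicase Brip1 had 0.39, the recombination gene Xrcc2 0.30, the Brca1 partner Bard1 0.28 and Rad51c 0.10 on the log2 scale, none past the test (limma, adjusted p of 0.0622, 0.0958, 0.0968 and 0.67).

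**Figure D2:**
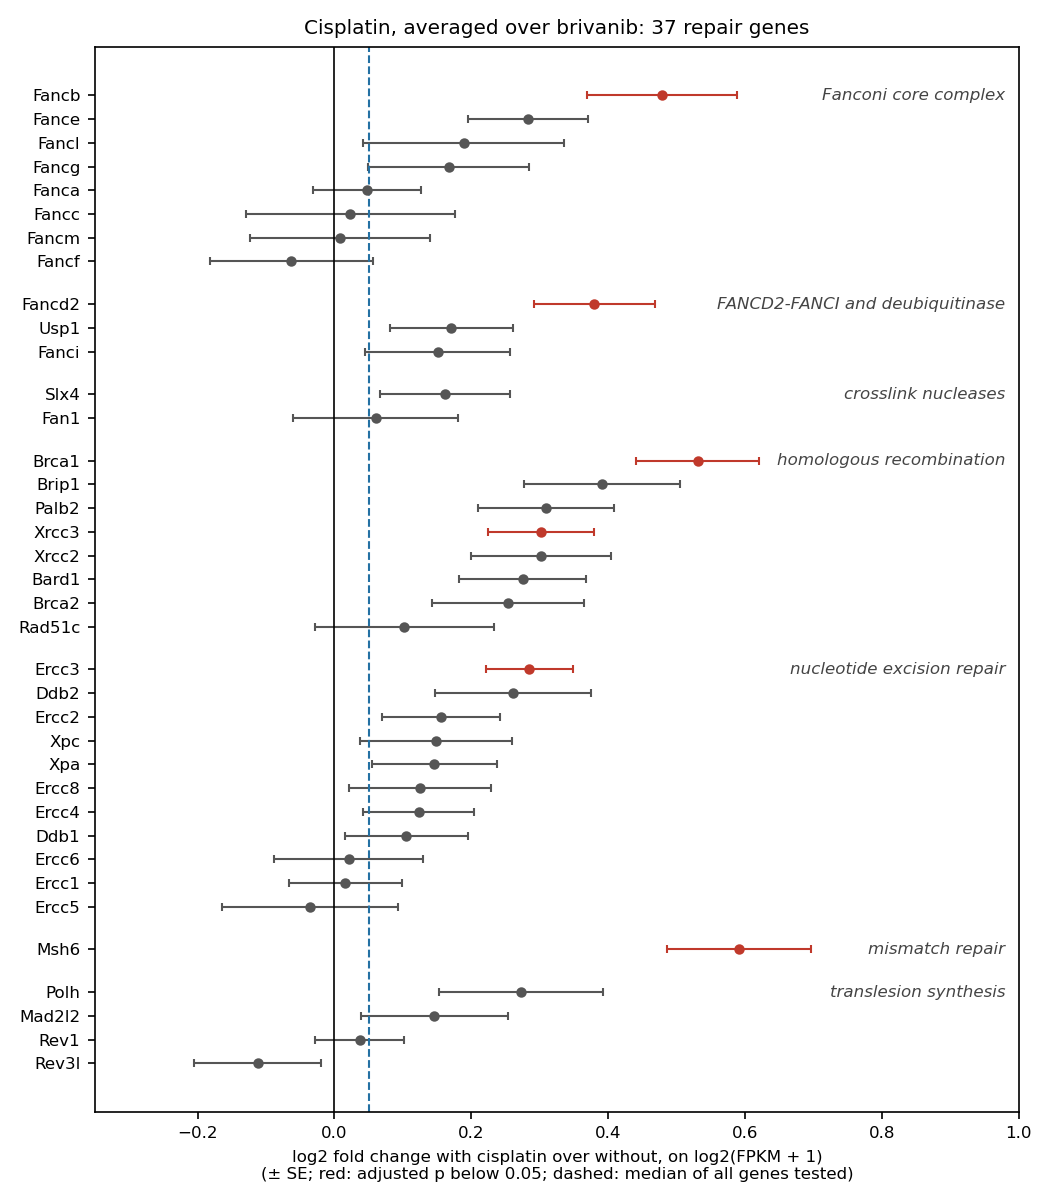
Log2 fold change with over without cisplatin (± SE, 6 tumours a side) for the 37 genes, grouped by role; red marks adjusted p below 0.05 and the dashed line the median of all genes tested, 0.05. The 8 genes of homologous recombination lie right of that line, and Rev3l is furthest left at -0.11.

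Of the 11 genes of nucleotide excision repair 1 (9.1%), Ercc3, was higher with cisplatin, against 4.96% of all genes tested. The median fold change over the 11 was 0.13, against 0.05 for all genes. Ercc3, a helicase of the general transcription factor TFIIH that opens DNA around a lesion, had 25.6, 26.3 and 27.1 FPKM in the combination tumours, 28.6, 25.2 and 27.4 FPKM in the cisplatin tumours, 22.1, 23.3 and 20.4 FPKM in the brivanib tumours and 20.5, 22.98 and 21.3 FPKM in the vehicle tumours. All tumours given cisplatin were above those not given it, by a margin of cisplatin 2 over brivanib 3, and the fold change was 0.29 ± 0.06 (limma, adjusted p = 0.0247). Its TFIIH partner helicase Ercc2 had 0.16 (limma, adjusted p = 0.285). Xpc, which finds lesions across the genome, had 6.22, 8.33 and 7.87 FPKM in the combination tumours, 8.14, 6.53 and 8.75 FPKM in the cisplatin tumours, 5.85, 7.02 and 4.88 FPKM in the brivanib tumours and 7.79, 8.55 and 6.99 FPKM in the vehicle tumours. Brivanib 5 was lowest and cisplatin 3 highest, with overlap, and the fold change was 0.15 ± 0.11 (limma, adjusted p = 0.44). Ddb2, a sensor of damaged bases in chromatin, had 8.24, 9.59 and 7.83 FPKM in the combination tumours, 7.48, 7.99 and 7.52 FPKM in the cisplatin tumours, 6.43, 5.798 and 5.598 FPKM in the brivanib tumours and 7.46, 9.48 and 5.41 FPKM in the vehicle tumours. The 3 vehicle tumours alone spanned nearly the whole range, and the fold change was 0.26 ± 0.11 (limma, adjusted p = 0.182). Ercc1, which cuts the damaged strand as a pair with Ercc4 and also acts on crosslinks between strands, had 11.8, 14.1 and 12.5 FPKM in the combination tumours, 12.4, 15.2 and 12.8 FPKM in the cisplatin tumours, 12.1, 14.3 and 14.9 FPKM in the brivanib tumours and 11.5, 12.2 and 12.8 FPKM in the vehicle tumours. No group stood apart, and the fold change was 0.02 ± 0.08 (limma, adjusted p = 0.921). The damage verifier Xpa had 0.15, the nucleases Ercc4 0.12 and Ercc5 -0.04, the sensors of stalled transcription Ercc6 0.02 and Ercc8 0.13, and Ddb1 0.11, none past the test.

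Msh6 had the largest fold change of the 37 genes in this contrast. It had 43.7, 41.3 and 41.8 FPKM in the combination tumours, 56.4, 34.8 and 48.3 FPKM in the cisplatin tumours, 26.7, 30.5 and 26.8 FPKM in the brivanib tumours and 29.5, 27.2 and 32.7 FPKM in the vehicle tumours. Cisplatin 1 was highest, and cisplatin 2, the lowest tumour given cisplatin, stayed above vehicle 5. The fold change was 0.59 ± 0.11 (limma, adjusted p = 0.0106), a ratio of mean FPKM of 1.54. Msh6 has a single annotated transcript, so its level does not depend on how fragments were split.

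None of the 4 translesion synthesis genes passed the test in the contrast averaged over brivanib, where 1 was higher at an unadjusted p below 0.05 in limma and voom also called 0. Of all genes tested 4.96% were called higher and 17.4% were higher at that unadjusted p. Polh, the polymerase that copies past adducts within a strand, had 21.5, 19.5 and 21.7 FPKM in the combination tumours, 18.2, 17.5 and 20.2 FPKM in the cisplatin tumours, 11.1, 20.6 and 16.8 FPKM in the brivanib tumours and 15.97, 16.6 and 17.1 FPKM in the vehicle tumours. Brivanib 2 was far below the other 11 tumours and brivanib 3 was among the highest, and the fold change was 0.27 ± 0.12 (limma, adjusted p = 0.182). Without brivanib 2 the fold change of Polh was 0.16 (limma, adjusted p = 0.236), and without brivanib 3 it was 0.37 and passed the test (limma, adjusted p = 0.0468). Rev3l, the catalytic subunit of polymerase zeta, had 9.08, 8.401 and 9.83 FPKM in the combination tumours, 8.98, 7.95 and 9.84 FPKM in the cisplatin tumours, 7.89, 9.26 and 7.93 FPKM in the brivanib tumours and 9.57, 12.5 and 12.7 FPKM in the vehicle tumours. Vehicle 3 and 5 were highest, while vehicle 2 lay within the treated tumours, and the fold change was -0.11 ± 0.09 (limma, adjusted p = 0.485). It was -0.62 with protein-coding transcripts only and 0.45 with the most abundant transcript, neither past the test (limma, adjusted p of 0.432 and 0.539). Mad2l2, the structural subunit of that polymerase, had 0.15, and the scaffold Rev1 0.04.

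**Figure D3:**
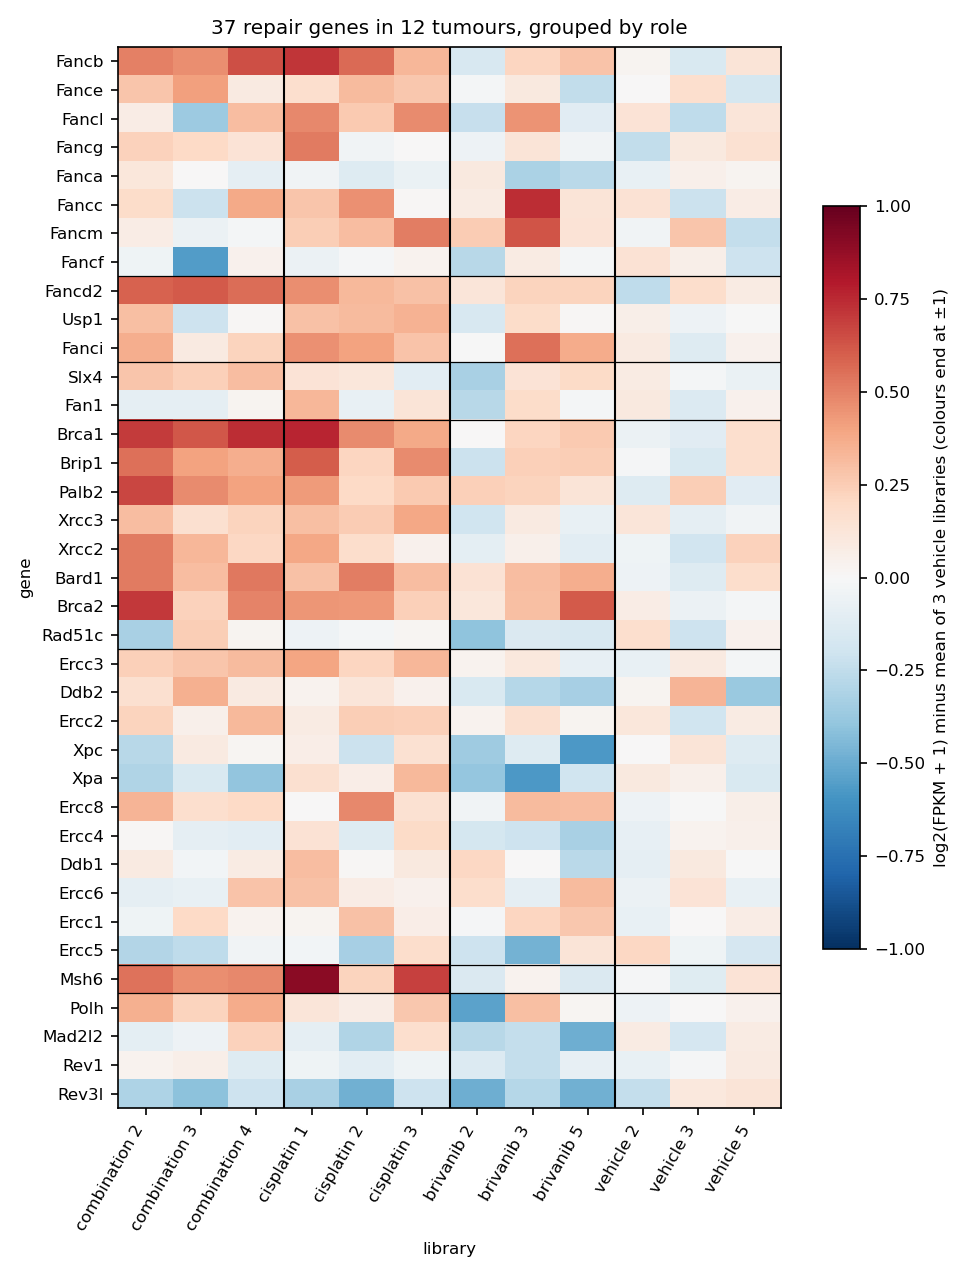
Difference of log2(FPKM + 1) from the mean of the 3 vehicle tumours for the 37 genes (rows, by role) in 12 tumours (columns, by group); red is higher and blue lower, and colours end at ±1. Fancb, Fancd2, Brca1 and Msh6 are red in all combination and cisplatin columns. Rev3l is blue in all combination, cisplatin and brivanib columns, and Xpa in all combination and brivanib columns.

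Other markers moved with cisplatin as well. In the contrast averaged over brivanib, 4.96% of all genes tested were called higher and 1.55% lower, with a median fold change of 0.05. All 27 genes of a proliferation list were tested, and 14 (51.9%) were higher in the same contrast, with a median of 0.37. They included the mitotic genes Prc1 (0.54 ± 0.08), Ccnb2 (0.61 ± 0.10) and Foxm1 (0.59 ± 0.12) (limma, adjusted p of 0.00605, 0.00736 and 0.0174). The summed level of the list was 1452 to 1715 FPKM in combination, 1458 to 1645 in cisplatin, 1063 to 1435 in brivanib and 942 to 1148 FPKM in vehicle tumours. Of 31 genes of DNA replication, 13 (41.9%) were higher, with a median of 0.35. All 5 tested genes of 6 erythroid markers were lower, with a median of -6.74, and their list summed to 4.54 to 16.5 FPKM in combination, 4.44 to 99.6 in cisplatin, 449 to 2939 in brivanib and 1607 to 3085 FPKM in vehicle tumours, with no marker at 0 in every library. The 12 fibroblast markers had a median of -0.73 in the averaged contrast, with 3 called lower, but medians of 0.35 for the combination and 0.47 for cisplatin, each against vehicle, beside 2.89 for brivanib against vehicle. The 5 tested of 7 pericyte markers had -0.73 in the averaged contrast, with 3 called lower, and -0.38, -0.36 and 0.36 for the combination, cisplatin and brivanib against vehicle. Skeletal muscle markers (13 tested of 21, 0 called in either direction, 0 at an unadjusted p below 0.05) summed to 1.97 to 72.6 FPKM in combination, 1.59 to 30.1 in cisplatin, 1.45 to 363 in brivanib and 2.76 to 3.12 FPKM in vehicle tumours. Fat cell markers (9 tested of 14, 0 called, 2 higher and 0 lower at an unadjusted p below 0.05) summed to 113 to 355 FPKM in combination, 42.0 to 91.8 in cisplatin, 46.8 to 293 in brivanib and 39.8 to 42.1 FPKM in vehicle tumours, with no marker of either list at 0 in every library.

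With the mean level of the proliferation list as a covariate, limma called 0 of the 37 genes in the contrast averaged over brivanib, with 0 higher and 0 lower at an unadjusted p below 0.05. Brca1 then had 0.26 ± 0.16 (limma, adjusted p = 0.594), Msh6 0.31 ± 0.19 (limma, adjusted p = 0.599) and Fancd2 0.20 ± 0.17 (limma, adjusted p = 0.725). With no covariate the standard error of Brca1 was 0.09. The mean log2 level of the proliferation list was 5.45 to 5.69 in tumours given cisplatin and 4.89 to 5.45 in those not given it. These ranges met only at their edges, so this fit cannot tell proliferation and cisplatin apart. Shares of all genes called in the covariate fits are not reported here. With the erythroid level as a covariate, an alternative added after the values were seen, 0 were called too, with 2 higher and 0 lower at an unadjusted p below 0.05, and Brca1 stood at 0.71 ± 0.31 and Xrcc3 at -0.02 ± 0.26 (limma, adjusted p of 0.564 and 0.991). The tumours given cisplatin had mean log2 levels of 0.54 to 3.91 for this list and those not given it 5.72 to 8.41, without overlap. The erythroid fit thus cannot tell erythroid level and cisplatin apart either, and in it 18 of 37 fold changes were positive. With the muscle level as a covariate 8 genes were called, the same 6 with Brip1 and Polh. With the adipocyte level as a covariate Brca1 and Msh6 remained called. Beyond these fits, the part of these markers in the values of the repair genes was not tested.

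**Figure D4:**
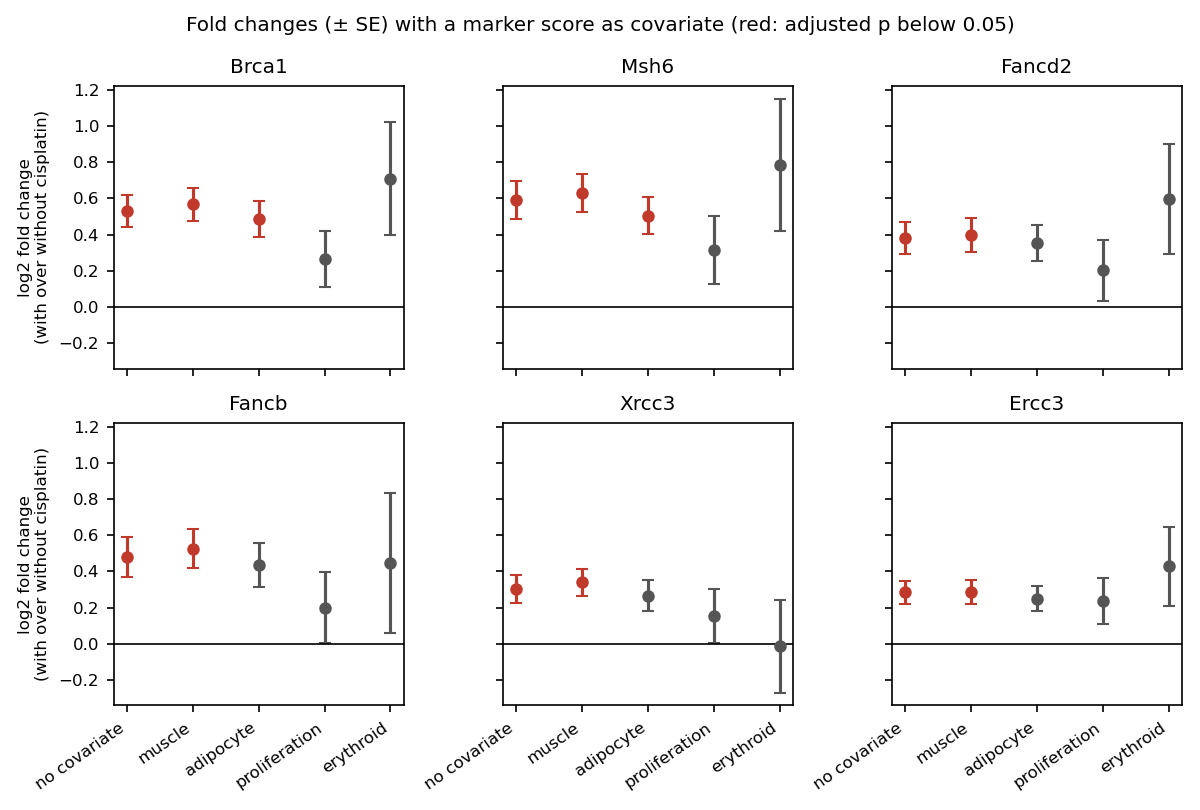
Log2 fold change with over without cisplatin (± SE) of the 6 called genes in a fit with no covariate and in fits with the mean level of muscle, adipocyte, proliferation or erythroid markers as a covariate; red marks adjusted p below 0.05. Brca1 and Msh6 are red in the first 3 fits, and no gene is red with proliferation or erythroid markers.

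Leaving out 1 tumour in turn kept Brca1 and Msh6 called each time. The count of called genes was 2 without cisplatin 1, combination 2 or vehicle 2, 3 without cisplatin 3, brivanib 5 or combination 3, and 9 without brivanib 3. Of 27 alternatives run for this contrast, Brca1 and Msh6 were called in 23, Fancb in 14 of 26, Fancd2 in 13 and Ercc3 in 11. Rescaled to equal totals, which shifts the median of all genes to 0.15 since the total of brivanib 5 was 921510 FPKM against 471828 to 527657 FPKM elsewhere, limma called 0 of the 37 (11 higher and 0 lower at an unadjusted p below 0.05), while the fold changes of 36 were positive.

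Cisplatin alone gave no called repair gene against vehicle. limma and voom each called 0 of 37, beside 0.119% of all genes called higher and 0.0702% lower by limma, and at an unadjusted p below 0.05 limma had 11 higher and 1 lower (10.8% and 3.47% of all genes). The fold change was positive for 29 of 37 genes, against 62.0% of all genes. All 3 cisplatin tumours lay above all 3 vehicle tumours for 14 genes and below for 0, as for 17.0% and 6.72% of all genes. The genes with the smallest p were Brca1 (0.54 ± 0.13, limma, adjusted p = 0.102), Msh6 (0.60 ± 0.15, adjusted p = 0.111) and Ercc3 (0.31 ± 0.09, adjusted p = 0.149). Mean levels were 15.2 ± 2.31 FPKM of Brca1 in cisplatin and 10.1 ± 1.19 FPKM in vehicle tumours, and 46.5 ± 10.9 and 29.8 ± 2.800 FPKM of Msh6 (SD, n = 3). Without cisplatin 2, where Msh6 was lowest of the cisplatin tumours, Msh6 passed (limma, 0.79, adjusted p = 0.0381). Fold changes of the 37 ran between -0.34 for Rev3l and 0.60 for Msh6, with a median of 0.19, against 0.07 for all genes.

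The combination raised 2 repair genes against vehicle, Brca1 and Fancd2. They came to 5.4% of the 37 genes, beside 1.82% of all genes called higher and 0.519% lower. Brca1 averaged 16.9 ± 0.748 FPKM in combination and 10.1 ± 1.19 FPKM in vehicle tumours (SD, n = 3), a fold change of 0.69 ± 0.13 (limma, adjusted p = 0.0227). Fancd2 averaged 8.67 ± 0.191 and 5.49 ± 0.978 FPKM in the same groups, a fold change of 0.59 ± 0.13 (limma, adjusted p = 0.0354). Palb2 followed at 0.52 ± 0.14 without passing (limma, adjusted p = 0.0757), and its most abundant transcript alone had -0.34. The groups did not overlap for 13 genes that were higher and for Xpa, which was lower (17.2% and 9.35% of all genes). At an unadjusted p below 0.05 limma had 10 higher and 1 lower (12.5% and 6.3% of all genes), and 28 fold changes were positive (56.7% of all genes). The median over the 37 was 0.19, against 0.04 for all genes, and that of the 8 recombination genes was 0.44. The count of 2 was 0 without combination 2 or 3 or vehicle 2 or 3, 1 without cisplatin 3, combination 4 or vehicle 5, and 3 without cisplatin 2.

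Brivanib alone gave no called repair gene against vehicle. limma and voom each called 0 of 37, beside 1.71% of all genes called higher and 0.105% lower by limma, and at an unadjusted p below 0.05 limma had 0 higher and 4 lower (7.34% and 4.34% of all genes). The genes with the smallest p were Rev3l (-0.42 ± 0.13, limma, adjusted p = 0.191), Xpa (-0.39 ± 0.13, adjusted p = 0.223) and Xpc (-0.35 ± 0.16, adjusted p = 0.41). Xpa had 9.399, 10.5 and 8.73 FPKM in the combination tumours, 13.3, 12.4 and 14.96 FPKM in the cisplatin tumours, 8.75, 7.57 and 10.1 FPKM in the brivanib tumours and 12.7, 12.2 and 10.5 FPKM in the vehicle tumours. Its brivanib tumours all lay below the vehicle tumours, and its combination tumours lay below the cisplatin tumours and, by a narrow margin, below vehicle 5. Groups did not overlap for 5 genes lower with brivanib (Rev3l, Xpa, Mad2l2, Ercc4 and Rev1) and 1 higher (Brca2), against 6.9% and 8.95% of all genes. The fold change was positive for 19 of 37 genes, against 48.3% of all genes. All 4 translesion genes had negative values, with a median of -0.25, but 2 of the 4 were positive when only protein-coding transcripts were counted, with Rev3l at 0.53. The median over the 37 was 0.00, against -0.01 for all genes, and after rescaling to equal totals 3 genes were positive and 34 negative, with medians of -0.35 over the 37 and -0.34 over all genes. Of the 27 proliferation genes 0 were called with brivanib, with 8 higher and 0 lower at an unadjusted p below 0.05. Their fold changes were positive for 26 and negative for 1, with a median of 0.26. The 31 replication genes had 0 called, 26 positive and 5 negative, with a median of 0.15. Fibroblast markers were called higher with brivanib for 7 of 12 and pericyte markers for 2 of 5 tested. Macrophage markers were called higher for 2 of 12, with 10 at an unadjusted p below 0.05 and a median of 1.25, and muscle markers for 0 of 13 tested, with 12 at an unadjusted p below 0.05 and a median of 2.68. The macrophage list summed to 209 to 650 FPKM in combination, 260 to 570 in cisplatin, 672 to 887 in brivanib and 253 to 437 FPKM in vehicle tumours. The fibroblast list summed to 332 to 800 FPKM in combination, 563 to 1089 in cisplatin, 1647 to 2175 in brivanib and 751 to 1248 FPKM in vehicle tumours. The pericyte list summed to 14.5 to 25.8 FPKM in combination, 18.7 to 33.6 in cisplatin, 61.8 to 96.1 in brivanib and 28.5 to 35.2 FPKM in vehicle tumours, and no marker of these lists was at 0 in every library. The part of these cells in the values of the repair genes was not tested.

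Adding cisplatin to brivanib gave 1 called repair gene, Brca1, at 0.53 ± 0.13 (limma, adjusted p = 0.043). This is 2.7% of the 37 genes, near the 2.02% of all genes called higher, with 1.85% called lower. Msh6 had 0.58 ± 0.15 (limma, adjusted p = 0.0522) and Fancd2 0.40 ± 0.13 (adjusted p = 0.0988). At an unadjusted p below 0.05 limma had 12 of the 37 higher and 0 lower (13.0% and 8.7% of all genes), and 28 fold changes were positive (56.4% of all genes). The groups did not overlap for 14 genes that were higher and 1 that was lower (14.1% and 9.14% of all genes). The count of 1 is easily moved: it was 0 without any single brivanib or combination tumour and without vehicle 2 or 3, and 2 without cisplatin 1, while voom called 3.

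Adding brivanib to cisplatin gave no called gene: limma called 0 of 37 and 0.0% of all genes in either direction, with 401 genes (2.81%) higher and 559 (3.92%) lower at an unadjusted p below 0.05. Of the 37, 0 were higher and 2 lower at that level, 20 fold changes were positive (45.9% of all genes), and voom called 0. Groups did not overlap for 2 genes that were higher (Fancd2 and Slx4) and 2 that were lower (Xpa and Fancm), against 4.94% and 7.44% of all genes. The smallest p belonged to Xpa (-0.46 ± 0.13, limma, adjusted p = 0.657) and Usp1 (-0.29 ± 0.13, adjusted p = 0.728), followed by Fancm (-0.35 ± 0.19, adjusted p = 0.763). Usp1 had 34.3, 23.8 and 27.8 FPKM in the combination tumours, 34.03, 34.7 and 35.4 FPKM in the cisplatin tumours, 24.6, 31.5 and 27.8 FPKM in the brivanib tumours and 28.7, 26.6 and 27.4 FPKM in the vehicle tumours. Its combination tumours spread from below all vehicle tumours to the level of the cisplatin tumours. Fancm had 1.81, 1.56 and 1.64 FPKM in the combination tumours, 2.16, 2.296 and 2.801 FPKM in the cisplatin tumours, 2.18, 3.12 and 1.93 FPKM in the brivanib tumours and 1.597, 2.24 and 1.26 FPKM in the vehicle tumours. Its combination tumours all lay below the cisplatin tumours and overlapped the vehicle tumours.

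The interaction, the effect of brivanib with cisplatin minus its effect without, was called for 0 of 37 genes by limma and by voom, beside 0.0% of all genes higher and 0.14% lower by limma. At an unadjusted p below 0.05 limma had 1 gene higher and 2 lower (3.37% and 6.67% of all genes), and 16 of 37 values were positive (47.3% of all genes). First in the order of p was Fancm (-0.69 ± 0.26, limma, adjusted p = 0.389), followed by Rev3l (0.45 ± 0.19, adjusted p = 0.448) and Fanci (-0.47 ± 0.21, adjusted p = 0.495). For the 6 genes called with cisplatin the interaction lay between -0.12 (Fancb) and 0.04 (Fancd2), with standard errors of 0.13 (Ercc3) to 0.22 (Fancb). The comparisons against vehicle share the vehicle tumours, and the comparisons of the combination share its tumours, so their values stand side by side and are not independent.

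How fragments were split between transcripts bears on some genes. Ercc3 has a protein-coding and a retained-intron transcript of nearly the same length, and the retained-intron transcript was estimated at 1.09 ± 1.70 FPKM in combination, 7.89 ± 6.75 in cisplatin, 10.4 ± 2.62 in brivanib and 8.24 ± 6.95 FPKM in vehicle tumours (SD, n = 3). Its share of the gene was 0.3% to 60.7% over the 12 tumours, while the sum of both varied little within groups. Fancd2 has 2 main protein-coding transcripts, and the shorter one was at 5.21 ± 1.25 FPKM in combination, 3.74 ± 0.108 in cisplatin, 2.999 ± 0.187 in brivanib and 1.76 ± 0.916 FPKM in vehicle tumours. The most abundant transcript of Rev3l is annotated for nonsense-mediated decay and took 4.3% to 85.6% of the gene. Protein-coding transcripts averaged below 50% of the level in 3 genes, Rev3l, Fancm and Ercc8. In Fancm they took 0.0% to 60.2% over the 12 tumours. Its decay transcript averaged 37.8% in combination, 13.9% in cisplatin, 6.9% in brivanib and 35.2% in vehicle tumours. In Ercc8 decay transcripts took 14.4% to 88.1%. With the most abundant transcript in place of the sum, limma called 3 genes, Brca1, Msh6 and Fancb, in the contrast averaged over brivanib.

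**Figure D5:**
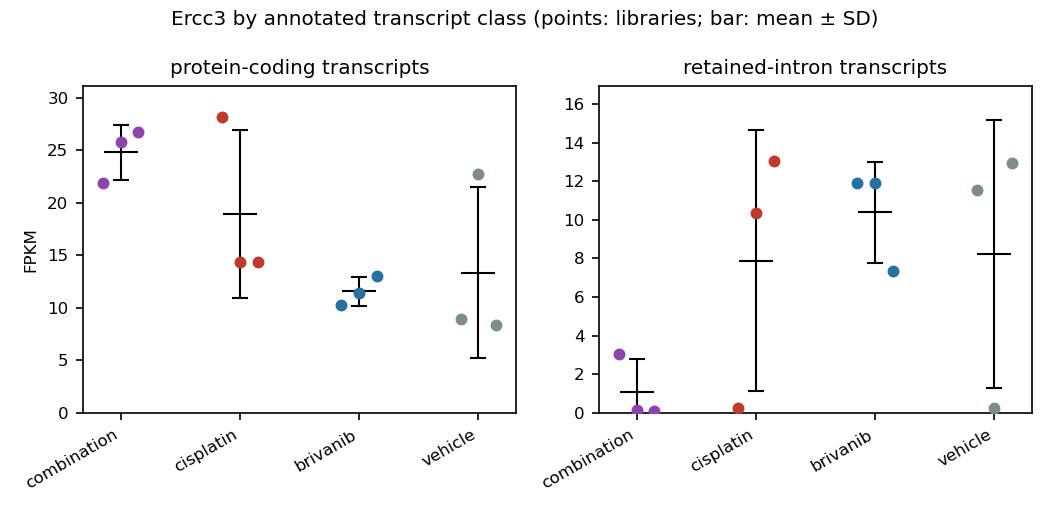
FPKM of the protein-coding (left) and retained-intron (right) transcripts of Ercc3, 1 point per tumour, with mean and SD of each group of 3 as bars. Combination 3 and 4, cisplatin 1 and vehicle 3 have 98.1% to 98.9% of the gene's level in the coding transcript, combination 2 has 85.3%, and the others have 39.3% to 63.9%.

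Some levels are uncertain through shared sequence. Usp1 shares 2178 bases at 97.9% identity with the gene model Gm5841, which averaged 1.15 FPKM. No strand setting is named in the sources used here, and exons overlap a gene on the other strand over 26.6% of exon bases in Rev1 (with Eif5b), 24.6% in Ercc2 (with Gm26852, and 17.8% with Klc3), 23.8% in Ddb2 (with Acp2), 16.4% in Fancc (with Gm16133), 13.7% in Fancl (with Vrk2) and 10.5% in Fanca (with Zfp276). Such overlap covered 921 of 5774 exon bases in Fanci (with Polg) and 253 of 1691 in Fancf (with Gas2). Among the 6 called genes such overlap was 3.2% in Fancd2, 0.8% in Msh6 and 0.4% in Xrcc3, and none was listed for Brca1, Fancb or Ercc3.

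Other genes of these pathways were counted from lists of 97 genes, of which 90 were tested. In the contrast averaged over brivanib 15 were higher and 1 lower (16.7% higher, against 4.96% of all genes called higher and 1.55% lower), with a median of 0.11, against 0.05 for all genes. In the Fanconi and recombination list (37 tested of 41) 7 were higher and 1 lower. Exo1, which resects broken ends, had 0.60 ± 0.10 (limma, adjusted p = 0.00743), and among the others Rad51ap1, Eme1, Rbbp8, Rfwd3 and Abraxas1 had 0.49, 0.44, 0.33, 0.31 and 0.30. Rad52, an annealing protein, fell by 0.42 (limma, adjusted p = 0.0306). Of 24 other excision repair genes 3 were higher: Rpa2, a subunit of the single-strand binding protein (0.50), and Mnat1 (0.63) and Cdk7 (0.38), which form the kinase of TFIIH beside Ercc3. Of 12 other genes in the translesion list 2 were higher, the ubiquitin ligase Rad18 (0.47) and Parpbp (0.47). Of 11 tested genes in the end joining list 3 were higher, Dclre1c (0.41), Mad2l1bp (0.49) and Xrcc5 (0.28). A place in a list does not say that a gene promotes that kind of repair. Of 6 other mismatch repair genes limma called 0, with 1 at an unadjusted p below 0.05.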

How the data were processed

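RNA was sequenced from 12 tumours in 4 groups of 3, on a BGISEQ-500 per the series' design text. The authors aligned reads with Bowtie2 to mm10 and estimated the deposited FPKM values per transcript with RSEM, as that text states. Per the submitters' processing notes, HISAT, Bowtie, Bowtie2 2.2.5 and RSEM 1.2.12 were used, and mm9 is listed there. Of the genes also found in GENCODE M21 on GRCm38, 97.08% had the same coordinates. Transcripts of a gene were summed, 3 damaged lines were dropped and 1 column that matched no sample was not used. FPKM times length moved in whole steps (100% whole within 0.01, up to 100 fragments), which gave 17.161 M to 30.943 M fragments per library.

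Genes with a mean of at least 1 FPKM were tested with limma 3.58.1 (R 4.3.3) on log2(FPKM + 1), with 4 group means over 12 libraries, a trend of variance with the mean, 8 residual degrees of freedom, two-sided tests and Benjamini-Hochberg adjustment over 14246 genes, at a threshold of 0.05. There were 7 comparisons. The procedure was tested on simulated data. limma-voom on recovered fragments was an alternative. Shared sequence was sought with blastn 2.17.0 (at least 200 bases at 95% identity). The members and lists were chosen with earlier results of these data known. Values in every library are given for members called in any comparison, the 3 with the smallest p in each, and a panel of 10. Other genes are named where a list's gene was called, or among the 3 with the smallest p, and some are not reported here.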

Additional observations from a re-analysis of the deposited data

How the results depend on the processing

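Of 31 named fold changes under up to 28 alternatives, 698 values kept sign and call, 121 lost the call, 7 gained it and 20 changed sign. In the contrast averaged over brivanib the count of 6 was 0 with equal totals, with the replicate block and with a proliferation or erythroid covariate, 2 with ribosomal features removed and with an adipocyte covariate, 3 with median-of-ratios scaling and with the most abundant transcript, and 2 to 9 with a tumour left out. For the combination against vehicle the count of 2 was 0 with equal totals, with ribosomal features removed, with the replicate block, with an adipocyte, proliferation or erythroid covariate and with the most abundant transcript, 1 without the filter, with median-of-ratios scaling and with protein-coding transcripts, and 0 to 3 with a tumour left out. For the combination against brivanib the count of 1 was 3 with voom, 2 with a muscle covariate, 0 in the other alternatives that moved it (no filter, equal totals, median-of-ratios, ribosomal features removed, only the groups compared, no trend, the replicate block, adipocyte, proliferation and erythroid covariates, most abundant transcript, protein-coding transcripts), and 0 to 2 with a tumour left out. For cisplatin against vehicle the count of 0 was 0 to 1 with a tumour left out. The cause was not tested, except that the most abundant transcript leaves out fragments.

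Signs changed as follows. Rev3l was 0.53 for brivanib against vehicle with protein-coding transcripts, and with the most abundant transcript 0.45 averaged over brivanib (-0.62 with protein-coding transcripts, against -0.11) and -0.06 for the interaction. Palb2 was -0.34 for the combination against vehicle with the most abundant transcript. Averaged over brivanib, Fanca was -0.017 with median-of-ratios scaling, Brca2 -0.008 and -0.028, and Polh -0.22 and -0.45, with proliferation and erythroid covariates, and Xrcc3 -0.015 with the erythroid covariate. Ercc1, at 0.02, was -0.045 with median-of-ratios scaling, -0.046 with the proliferation covariate, -0.028 with ribosomal features removed, -0.025 with voom, -0.002 with protein-coding transcripts, -0.18 with the erythroid covariate, and -0.026 to 0.045 with a tumour left out.

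In the labels, groups share some replicate numbers. Same-numbered libraries had correlations of -0.157 to 0.213 between their deviations from group means over 13 pairs, and 2 were above 0.1. Differently numbered libraries of different groups had -0.232 to 0.231. Deviations within a group cancel out, which ties these correlations together, so they cannot decide whether the numbers pair the tumours. Cisplatin 1 and combination 4 have numbers of their own, which the replicate block absorbs. The protein-coding and erythroid alternatives were chosen after seeing the data. A gene such as Rad51c, with 85 fragments in a library, allows only large changes to be seen.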

Other observations

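Targets of p53, the factor that answers DNA damage, were also examined, and 21 of 22 listed genes were tested. In the contrast of tumours given and not given cisplatin 1 of them (4.8%) was called higher, against 4.96% of all genes. It was Zmat3, an RNA-binding protein, at 0.45 ± 0.08 (limma, adjusted p = 0.0117). At an unadjusted p below 0.05 limma had 7 higher and 0 lower, against 17.4% and 7.38% of all genes. The fold change was positive for 14 of 21 (66.7%, against 59.8% of all genes), and the median was 0.22 on the log2 scale, against 0.05 for all genes. The mean log2 level of the list was 3.41 to 3.57 in combination, 3.33 to 3.52 in cisplatin, 3.24 to 3.38 in brivanib and 3.24 to 3.26 in vehicle tumours, so the brivanib and cisplatin ranges overlapped. Cdkn1a, the cell cycle inhibitor, had 1.28 ± 0.34 in the combination against vehicle, 0.76 ± 0.34 in cisplatin against vehicle and 0.82 ± 0.34 in brivanib against vehicle, none past the test (limma, adjusted p of 0.0695, 0.332 and 0.359).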
